A study of Teleogryllus oceanicus with 18 samples.

Results

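Male field crickets (*Teleogryllus oceanicus*) from Mangaia that had carried planted larvae of *Ormia ochracea*, a parasitoid fly, for 7 days were compared with uninfested males of the same population. The comparison used the 3 control and the 3 day 7 libraries of the Mangaia colony, chosen by their population and time labels, which are 6 of the 18 RNA-seq libraries of the study. The other libraries came from Mangaia crickets at day 4 and from controls, day 4 and day 7 crickets of Kauai, a Hawaiian population that lives with the fly in the wild. Each Mangaia library held polyA RNA of 2 normal-wing males pooled in equal amounts, whereas each Kauai library pooled 1 flatwing male, of a silent wing form, with 1 normal-wing male, so that p-values measure the spread between pools and, between the populations, wing form and origin cannot be told apart. All males were sexually mature adults of a laboratory colony that was reared without flies. Infested males received 2 planidia each, placed where the thorax meets the abdomen, and controls were handled with a probe that carried no larva. The tissue is labelled abdominal and was the body left after the head, pronotum, wings, legs and digestive tract were removed and larvae were dissected out. Males whose larvae had already emerged were left out by the study.

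Planidia of *O. ochracea*, the mobile first stage of the larva, burrow into the host, feed on its tissues and kill it when they emerge. Insects meet such intruders with receptors that sense microbes or damage, with Toll signalling, and with the phenoloxidase cascade, in which inactive prophenoloxidase is cleaved to an enzyme that makes melanin. Such tissue is a mixture of cell types, fat body and muscle among them. Here fewer cells of a type and less RNA per cell cannot be told apart.

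The control libraries held 6613687 to 7578004 read pairs in genes and the day 7 libraries 7602080 to 8023588, which was 68.5% to 72.2% of all pairs. Of the 32729 genes in the files, 23748 reached 1 CPM, a count scaled to the library total, in 2 or more of the 18 libraries and were tested, and these held at least 99.86% of the gene counts of every library. Fewer genes were detected at day 7. The number of genes at 1 CPM or more was 19571, 19425 and 19446 in the control libraries and 17742, 16302 and 18005 in the day 7 libraries, without overlap (two-sided exact permutation p = 0.1, the smallest that 3 against 3 pools can give). Day 7 library 2 stood apart, with 11.6% of pairs unmapped against 8.30% to 9.36% in the other 5 libraries. Its log2 CPM values had correlations of 0.733 to 0.792 across genes with those of the controls, where library 3 had 0.818 to 0.863 and library 1 had 0.870 to 0.907. The labels give no reason for this. The counts of genes higher and lower at day 7 and the sizes of the falls are given with and without library 2. Counts shared with Kauai are given only with it.

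At day 7, 7454 genes (31.4% of those tested) were differentially expressed (DE) between infested and control crickets at a Benjamini-Hochberg FDR of 0.05 in edgeR's quasi-likelihood test (edgeR QL). Of these, 2993 (12.6%) were higher and 4461 (18.8%) were lower in infested crickets, with a median log2 fold change of 1.12 and -2.41. The median over all genes tested was -0.01. The genes that rose took up 12.3%, 15.7% and 13.5% of the gene counts in the control libraries and 34.2%, 29.6% and 36.3% at day 7. The genes that fell went from 19.9%, 16.3% and 17.8% to 6.49%, 3.74% and 3.55%. These shares describe genes chosen by the same comparison and were not tested. The 10 most abundant genes of each library held 16.6% ± 0.871 (SD, n = 3) of gene counts in controls and 16.4% ± 0.847 (SD, n = 3) at day 7, a difference within the spread of the pools (two-sided exact permutation p = 0.7). Without day 7 library 2, 2976 genes were higher and 3289 lower. Without day 7 library 3 there were 2341 higher and 2769 lower, and without Mangaia control 1 1236 higher and 3073 lower, while a fit of only the 6 libraries called 3327 genes.

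Rises and falls differed in shape. Rises were mostly smaller than falls, and 55.7% of the genes that rose changed over 2-fold and 24.3% over 4-fold. Most falls were over 2-fold (95.0% of the genes that fell), and 74% were over 4-fold. Of the falls, 52.1% (2323 genes) lay between 4-fold and 8-fold, against 13.1% of the rises, and the quartiles of the falls were -2.91 and -1.98 on the log2 scale. Over 16-fold, 169 genes rose and 264 fell. The sizes of the falls depended on the day 7 libraries. Without library 2, 96.0% of 3289 falls were over 2-fold but 52.2% over 4-fold and 35.9% between 4-fold and 8-fold, with quartiles of -2.61 and -1.65 and 174 genes over 16-fold. Without library 1, 34.6% of 4669 falls lay between 4-fold and 8-fold and 813 genes were over 16-fold. Among the rises, the share over 4-fold was 41.4% without control 1. Among genes under 1 CPM in controls, 12.5% rose and 7.44% fell. Among genes at 1 to 10 CPM, 9.51% rose and 22.9% fell, while among those at 10 to 100 CPM 16.8% rose and 18.8% fell. These levels come from the same controls as the fold changes, and genes under 1 CPM there could pass the filter through other libraries. The shares by level thus partly follow from the choice of bins and were not tested.

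**Figure D1:**
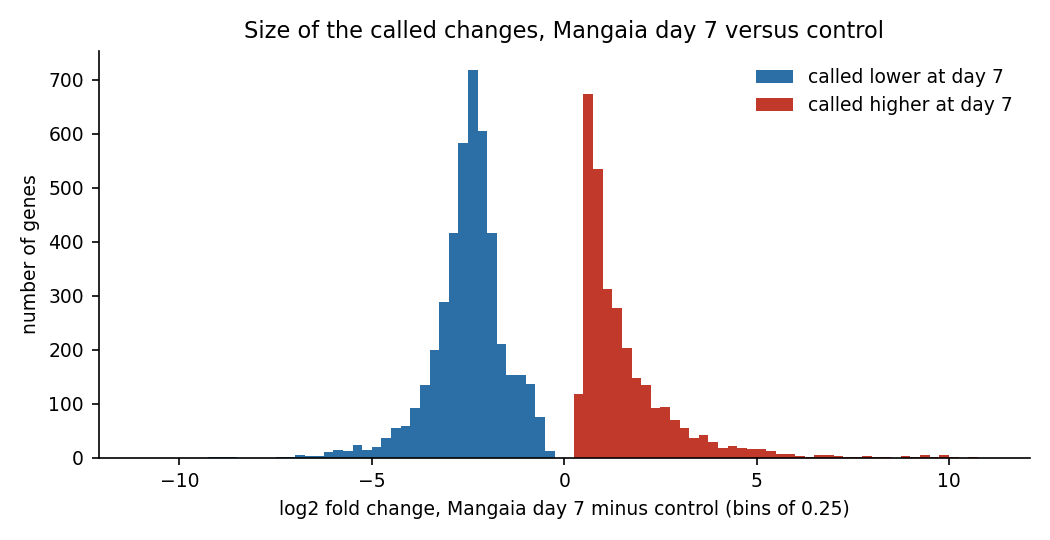
Number of DE genes (y axis) by log2 fold change between Mangaia day 7 and control libraries (x axis, bins of 0.25), with 4461 genes lower at day 7 in blue and 2993 genes higher in red. The falls form a peak around the median of -2.41, whereas the rises are most frequent between 0.5 and 1 and tail off to the right.

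Many falling genes moved together within each pool, and to a different depth in each. To read this in genes that were not chosen by their day 7 values in Mangaia, the 1932 genes were taken that fell over 4-fold at day 7 in Kauai and had at least 5 CPM in Mangaia controls, a minimum that uses the same controls from which the fall is measured. In Mangaia, their median log2 difference from the control mean was 0.03, -0.03 and 0.12 in the day 4 libraries. At day 7 it was -1.39 in library 1 (quartiles -1.79 and -1.03), -4.62 in library 2 (quartiles -5.44 and -3.94) and -2.06 in library 3 (quartiles -2.48 and -1.68). The control libraries, from which the mean was made, had medians of 0.28, -0.23 and -0.04. At the median this was 2.61-fold lower in library 1, 24.6-fold lower in library 2 and 4.16-fold lower in library 3. All 3 day 7 pools were thus low for the set, with library 2 far below the others, while the day 4 pools lay at the level of the controls. Without the minimum in Mangaia controls, the medians of the 4414 genes were -1.25, -3.22 and -1.76 in libraries 1, 2 and 3. Over all 3250 genes called lower in Kauai at the minimum of 5 CPM, whatever the size of the fall, the quartiles lay further apart. They were -1.53 and -0.33 in library 1, -4.83 and -0.61 in library 2 and -2.24 and -0.41 in library 3.

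Of these 1932 genes, 1873 (96.9%) were below all 3 controls in all 3 day 7 libraries, as were 27.4% of all genes tested, and 1570 (81.3%) were called lower in Mangaia, where 18.8% of all genes tested were. For 1678 of them (86.9%) the order of the day 7 libraries was the same, with library 2 lowest and library 1 highest. Together they held 14.5%, 12.7% and 12.7% of the gene counts in the control libraries, 15.1%, 13.6% and 15.3% at day 4, and 5.28%, 0.696% and 3.36% at day 7. Their identities are not paired with names in the sources used here. Library 2 was the lowest day 7 library for 3438 of the 4461 genes (77.1%) called lower in Mangaia, and it had the lowest number of detected genes. The part of unmapped reads or of RNA quality in this difference between pools was not tested.

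**Figure D2:**
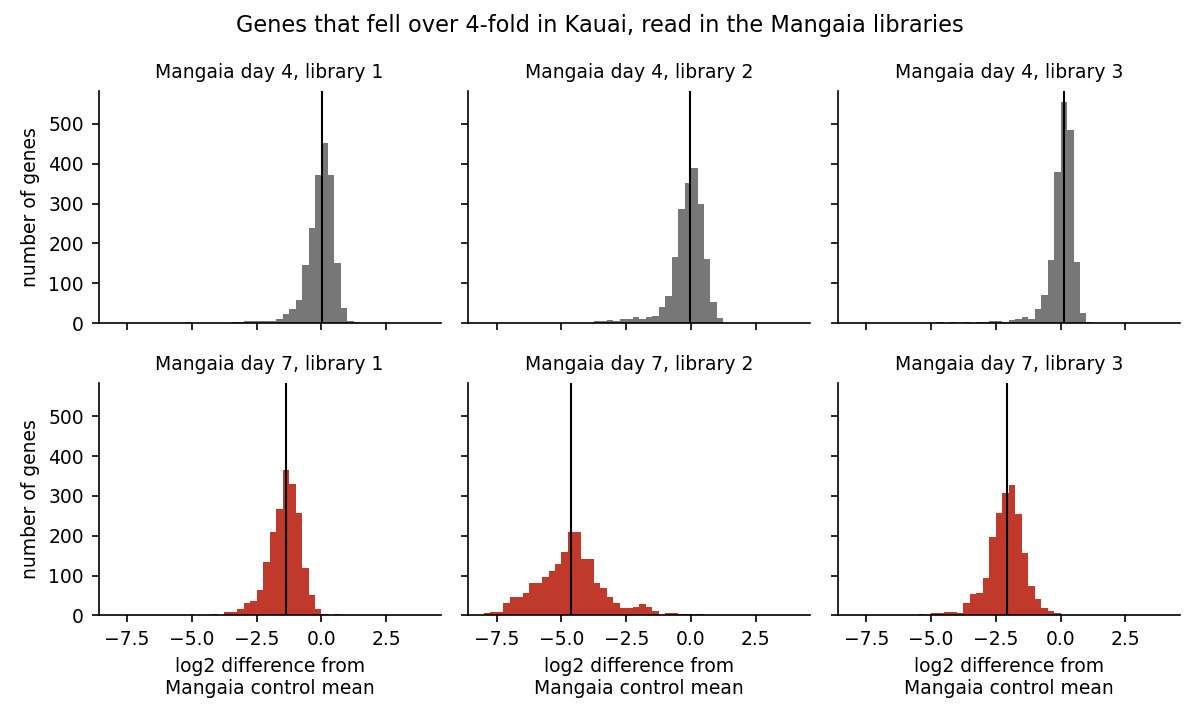
Log2 difference from the Mangaia control mean (x axis) for the 1932 genes that fell over 4-fold at day 7 in Kauai and had at least 5 CPM in Mangaia controls. The number of genes (y axis) is shown in each Mangaia day 4 library (grey, upper row) and day 7 library (red, lower row), with the median as a black line. The day 4 histograms centre near 0, and the day 7 histograms are shifted as a whole, to medians of -1.39, -4.62 and -2.06.

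When each day 7 library was set aside in turn and genes were called with the other libraries, the library set aside could be read on its own. The genes called lower without library 2 were below all controls in library 2 for 97.4% of them, with a median log2 difference of -3.32. The same shares were 92.1% in library 1 (median -1.29) and 97.3% in library 3 (median -1.95). For the genes called higher the order was closer, with medians of 0.91, 0.79 and 1.12 in libraries 1, 2 and 3, and 89.0% to 98.0% of them above all controls. The controls were shared by the calls and the readings, which raises these shares. The matching shares of all genes tested in a single library are not given here, so the shares have no background beside them.

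The genes with the strongest rise had few or no reads in most uninfested pools. Among genes whose mean reached 10 CPM, the 8 that rose most were MSTRG.10798, MSTRG.10803, MSTRG.18201, MSTRG.17938, MSTRG.10799, MSTRG.9585, MSTRG.8413 and MSTRG.90, with fitted log2 fold changes of 9.50 to 10.69 (for MSTRG.10798 and MSTRG.10803, which had no control read, the value depends on the prior count), and the sources used here pair none of them with a name. MSTRG.8413 had 2.5, 31.5 and 2.44 CPM in the control libraries and 19478, 3466 and 4676 CPM at day 7. Every infested pool was far above every control, and library 1 was above the other infested pools. Its log2 fold change was 9.56 (SE 1.74, edgeR QL adjusted p = 0.00185).

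MSTRG.10798 had 0 reads in all 3 control libraries and 357, 86 and 189 reads at day 7, which was at least 199.9-fold higher when 3 reads over the control group are taken as the floor. MSTRG.10803 likewise went from 0 reads to 312, 107 and 140, at least 176.8-fold higher. MSTRG.5052, the third of the genes with 0 control reads and the most day 7 reads, had 259, 27 and 66 reads, at least 111.3-fold higher. In each of these 3 genes library 1 had the most reads and library 2 the fewest, and edgeR QL adjusted p was 0.000101, 0.00222 and 0.00234. All 8 of the largest rises were highest in day 7 library 1 and lowest in library 2. In total, 103 genes tested had no read in any control, and 32 of them were called higher. Such genes passed the filter only through other libraries. At most 3 control reads in all and at least 10 reads in every day 7 library were found for 47 genes, all called higher. Reads from remaining larval tissue and from transcripts of the cricket cannot be told apart in these gene counts.

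The 8 largest falls by the same rule had log2 fold changes of -8.92 to -4.21, and none of these genes has a name in the sources used here. MSTRG.7489 had 148.4, 122.9 and 100.1 CPM in controls and 0.970, 0.982 and 0.823 CPM at day 7, close to a single level in the infested pools (log2 fold change -7.04, SE 0.771, edgeR QL adjusted p = 6.74e-05). MSTRG.14598 had 110.9, 82.2 and 81.2 CPM in controls and 0.554, 1.23 and 0.412 CPM at day 7 (log2 fold change -6.91, SE 0.992, edgeR QL adjusted p = 0.000433). MSTRG.17436 had 48.9, 29.4 and 33.6 CPM in controls and 1.94, 0.737 and 1.23 CPM at day 7, a log2 fold change of -4.83 (SE 0.559, edgeR QL adjusted p = 9.87e-05).

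A few of the falls rested on a single control library. TOG002075, with the largest fall by fold among genes whose mean reached 10 CPM, had 83.3 CPM in control 1 but 2.45 and 3.36 in controls 2 and 3, against 0, 0 and 0.137 CPM at day 7 (log2 fold change -8.92, edgeR QL adjusted p = 0.0178). The call was lost without control 1 (log2 fold change -5.68, adjusted p = 0.107), without day 7 library 2 (adjusted p = 0.0502) and without library 3 (adjusted p = 0.0630). MSTRG.3548, which had the most control reads among genes with none at day 7, had 197, 5 and 10 reads in the controls, and its call was likewise lost without control 1 (adjusted p = 0.186) and without any of the 3 day 7 libraries (adjusted p 0.0675 to 0.0820). MSTRG.14599 was steadier, with 86, 41 and 29 reads in controls and 0 in all day 7 libraries, which was at least 54.8-fold lower. Altogether 188 genes tested had no read in any Mangaia day 7 library, and 102 of them were called lower.

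The same genes were read at day 4, in libraries compared with the same controls. MSTRG.8413 was already at 6713, 10327 and 4011 CPM, within the range of the day 7 pools. All 8 of the largest rises were called against controls at day 4, where 3.11% of genes tested were (1.89% higher and 1.21% lower). Between day 4 and day 7, where 26.6% of genes were called, edgeR QL called 0 of the 8, and 0 had an unadjusted p under 0.05. MSTRG.7489 stood at 11, 8.29 and 3.37 CPM at day 4, between its control and day 7 levels. MSTRG.17436, in contrast, had 41.5, 44.2 and 52.8 CPM at day 4, within or above the range of its controls. It was lower after that day (log2 fold change between day 4 and day 7 -5.14, edgeR QL adjusted p = 0.00100). Of the 8 largest falls, 2 were called at day 4 and 6 between day 4 and day 7. Each of these contrasts reuses libraries by which the genes were chosen, so the counts only describe these genes and do not test the timing.

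**Figure D3:**
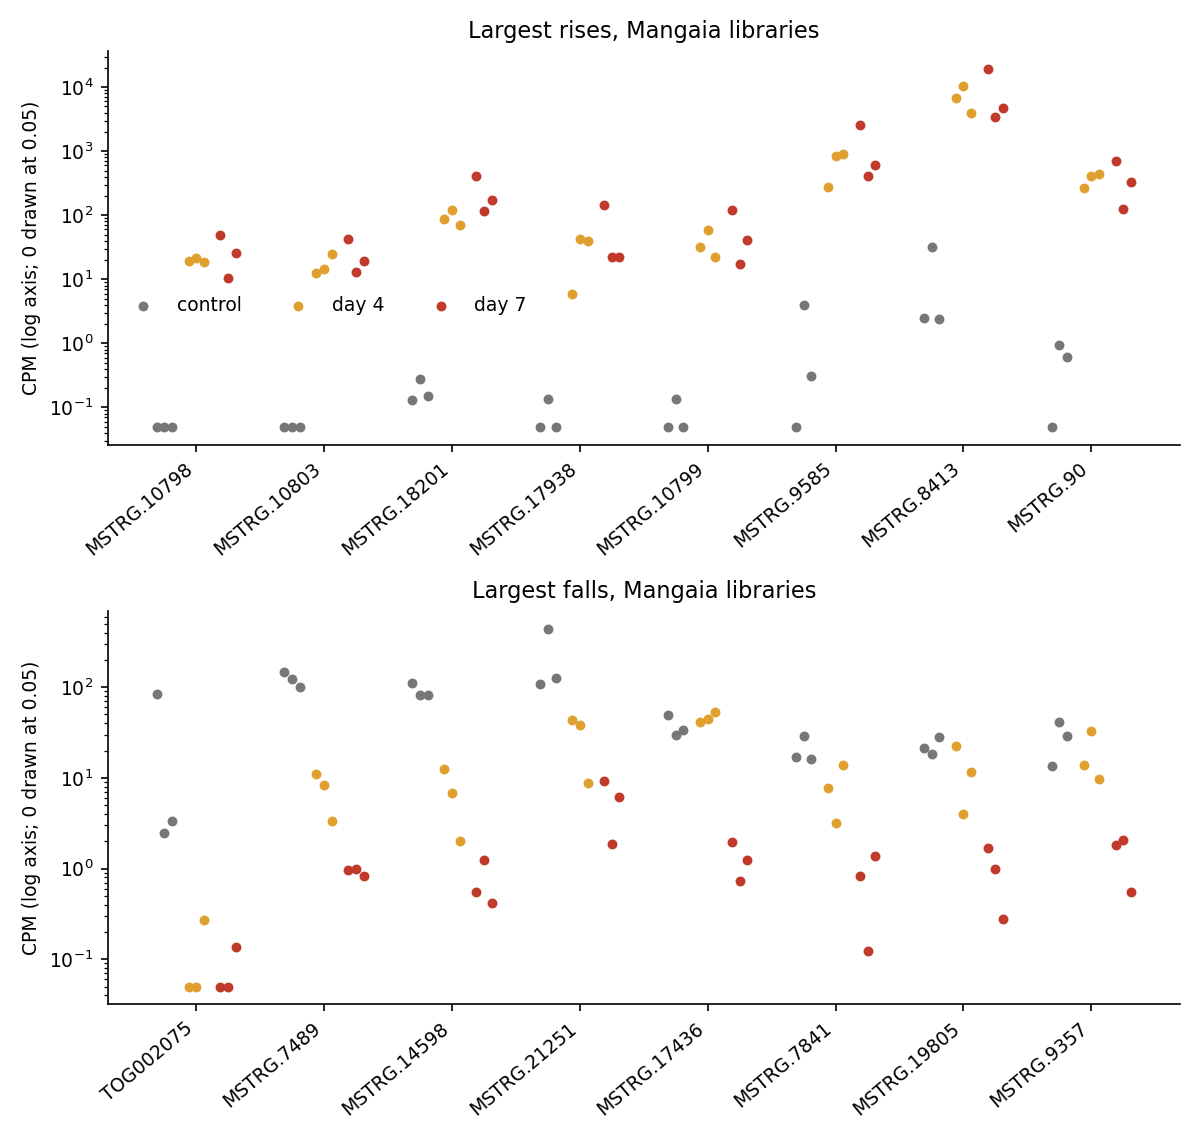
CPM (y axis, log scale, 0 drawn at 0.05) of the 8 genes that rose most and the 8 that fell most among DE genes with mean CPM of 10 or more, each point a library of Mangaia controls (grey), day 4 (orange) or day 7 (red). The rising genes are above the controls by day 4, while most falling genes are lower at day 7 than at day 4, and TOG002075 is high in a single control.

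The genes that gained most CPM were already abundant in controls, apart from MSTRG.8413. MSTRG.9224 had 3873, 7600 and 5387 CPM in controls and 25862, 10146 and 18801 CPM at day 7, a 3.25-fold rise of the mean (log2 fold change 1.70, SE 0.374, edgeR QL adjusted p = 0.00520). MSTRG.20602 rose from 469.8, 1640 and 671.3 CPM to 5814, 3491 and 9077 CPM (log2 fold change 2.72, SE 0.439, edgeR QL adjusted p = 0.000902). Both had day 7 pools above every control. MSTRG.9788, with the largest gain in CPM, went from 7004, 14352 and 11662 CPM to 23324, 19998 and 40123 CPM, but its call (log2 fold change 1.34, edgeR QL adjusted p = 0.0248) was lost without control 1, control 3 or day 7 library 3 (adjusted p 0.0503 to 0.141). MSTRG.4304 rose 1.39 on the log2 scale and lost its call without control 1 (adjusted p = 0.0776).

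Among the 5 genes that lost most CPM, MSTRG.19481 had 5363, 5493 and 6172 CPM in controls and 321.1, 347.6 and 286.2 CPM at day 7, 17.8-fold lower in the mean, with a narrow spread in both groups (log2 fold change -4.16, SE 0.696, edgeR QL adjusted p = 0.00116). MSTRG.4432 showed the opposite kind of spread. It had 3723, 3047 and 3435 CPM in controls but 1532, 35.4 and 589.9 CPM at day 7, so that library 2 lay far below library 1. Its call (log2 fold change -2.24, SE 0.789, edgeR QL adjusted p = 0.0420) was lost without any of the controls or day 7 library 3 (adjusted p 0.0590 to 0.111). MSTRG.7731, MSTRG.2611 and MSTRG.21619 fell by 1.73, 1.79 and 2.52 on the log2 scale, and the calls of the first and second were lost without control 3, day 7 library 2 or day 7 library 3 (adjusted p 0.0638 to 0.0932).

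Names were available for genes that the study listed as immune genes, through matches to proteins of other species. The 53 listed genes were chosen by the study, from a larger set of immune genes, for a change in these libraries, so neither the share called nor the direction of the list is independent evidence. All 53 passed the filter on low values. At day 7, 21 were higher, 6 were lower and 26 were not called, so 50.9% were called, a share raised by that choice, beside 31.4% of all genes tested, and the median log2 fold change of the list was 0.62 beside -0.01 for all genes. Without control 1 the counts were 10 higher and 6 lower, and in a fit of only the 6 libraries, where 46 of the genes were tested, 11 higher and 5 lower.

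Phenoloxidases, the copper enzymes of melanin formation, held the largest change of the list. Of 7 genes, 4 rose and 0 fell in edgeR QL, with 0 lower at an unadjusted p under 0.05 and 0 lower by the likelihood ratio test, DESeq2 or voom, and the median log2 fold change was 1.24. The 3 others had adjusted p of 0.0913, 0.190 and 0.470 in edgeR QL. Phenoloxidase 2-like (MSTRG.7273) had 64.3, 93.0 and 51.7 CPM in controls and 1294, 896.2 and 1598 CPM at day 7. The lowest infested pool was far above the highest control, and the mean was 18.1-fold higher (log2 fold change 4.18, SE 0.430, edgeR QL adjusted p = 4.56e-05). A prophenoloxidase gene (MSTRG.17307) rose from 36.6, 36.5 and 32.8 CPM to 131.6, 127.6 and 152.6 CPM, with little spread in either group (log2 fold change 1.96, SE 0.183, edgeR QL adjusted p = 2.01e-05).

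A further phenoloxidase 2-like gene (MSTRG.10990) rose from 8.55, 8.58 and 7.63 CPM to 21.3, 24.7 and 50.8 CPM, with library 3 above the others (log2 fold change 1.96, SE 0.345, edgeR QL adjusted p = 0.00152). MSTRG.10136, another prophenoloxidase, had a log2 fold change of 1.24 that passed the test in the model of all 18 libraries (edgeR QL adjusted p = 0.0333). Its call was lost when any of the 6 Mangaia control and day 7 libraries was left out (edgeR QL adjusted p 0.0551 to 0.101). Scaling by DESeq2's size factors also lost it (edgeR QL adjusted p = 0.0553). Subunit A3 genes MSTRG.10135 and MSTRG.10137 had log2 fold changes of 1.04 and 0.29, and MSTRG.11188, a phenoloxidase 2-like gene with 3, 6 and 4 reads in controls and 1, 0 and 3 at day 7, had -1.67. The 2 phenoloxidase-activating factors, serine protease-like proteins that promote the cleavage of prophenoloxidase, both rose, MSTRG.6730 by 1.04 (edgeR QL adjusted p = 0.00877) and MSTRG.18615 by 0.73 (adjusted p = 0.0124) on the log2 scale. The call of MSTRG.6730 was lost without control 1 (adjusted p = 0.0583) and that of MSTRG.18615 without day 7 library 2 (adjusted p = 0.0505).

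Toll-like receptors and other leucine-rich repeat proteins, which bind microbial or host ligands at membranes, had 5 of 10 genes higher and 0 lower in edgeR QL, with a median log2 fold change of 1.3. At an unadjusted p under 0.05, 6 were higher and 0 lower, by the likelihood ratio test 5 and 0, and by DESeq2 or voom 4 and 0, without MSTRG.872 (adjusted p 0.0595 and 0.0592). A Tollo gene (MSTRG.7205), named after a Toll receptor of *Drosophila*, rose from 3.03, 6.40 and 3.20 CPM to 19.7, 37.1 and 58.0 CPM, 9.09-fold in the mean and without overlap (log2 fold change 3.18, SE 0.545, edgeR QL adjusted p = 0.0013). The other calls rested on few reads. A further Tollo gene (MSTRG.7687) had 1, 3 and 0 reads in controls and 7, 9 and 20 at day 7, and toll-like receptor 2 (MSTRG.22446) had 5, 3 and 4 reads and then 9, 10 and 20. Toll-like receptor 13 (TOG006794) had 0, 1 and 0 reads and then 3, 4 and 6. These 3 calls, with that of TLR4 interactor with leucine rich repeats (MSTRG.872), were all lost without control 1 (adjusted p 0.0622 to 0.0911), and 1 of the 10 genes was still called there. Calls were also lost without day 7 library 3 for MSTRG.7687, MSTRG.22446 and MSTRG.872 (adjusted p 0.0870 to 0.284), without control 2 for MSTRG.22446 and MSTRG.872 (0.0589 and 0.120) and without control 3 for MSTRG.7687 and MSTRG.872 (0.0669 and 0.115). The 5 others had log2 fold changes of -0.71 to 1.07 and adjusted p of 0.0948 to 0.691 in edgeR QL.

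Peptidoglycan recognition proteins, which bind a polymer of bacterial cell walls, moved apart. PGRP-SC2 (MSTRG.9040), in *Drosophila* an amidase that degrades peptidoglycan and limits immune signalling, fell from 230.0, 198.1 and 375.3 CPM to 78.5, 41.7 and 26.9 CPM, 5.46-fold in the mean (log2 fold change -2.45, SE 0.435, edgeR QL adjusted p = 0.00162). PGRP 2-like (MSTRG.22070) rose from 31.3, 30.2 and 23.0 CPM to 60.5, 103.8 and 93.8 CPM (log2 fold change 1.61, SE 0.215, edgeR QL adjusted p = 0.000273). In both genes the groups did not overlap. PGRP-LB (MSTRG.18424) had 19.1, 23.8 and 21.7 CPM in controls and 29.2, 16.3 and 31.8 CPM at day 7, with overlapping groups (log2 fold change 0.26, edgeR QL adjusted p = 0.596).

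Of 5 signalling genes 1 rose and 1 fell. Eiger (MSTRG.17457), the tumour necrosis factor of *Drosophila*, rose from 7.76, 7.63 and 5.19 CPM to 14.5, 17.3 and 24.1 CPM (log2 fold change 1.44, SE 0.230, edgeR QL adjusted p = 0.000845). IRAK1BP1 (MSTRG.6375), in mammals a binding partner of an interleukin-1 receptor kinase, fell from 22.4, 18.8 and 19.4 CPM to 4.43, 1.23 and 2.20 CPM, with library 2 lowest (log2 fold change -2.95, SE 0.505, edgeR QL adjusted p = 0.00129). STING (MSTRG.18304), SARM1 (MSTRG.12613) and Ral-a (MSTRG.4830) had log2 fold changes of 0.17, -0.06 and 0.57 and were not called (adjusted p 0.665, 0.896 and 0.0572).

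In the remaining groups of the list, 2 of 7 nuclear and gene regulation genes rose and 1 fell, 3 of 10 genes of transport, trafficking and metabolism rose and 2 fell, and 3 of 9 other genes rose and 1 fell, beside 12.6% of all genes tested that rose and 18.8% that fell. Without day 7 library 2, 1 rose and 0 fell, 4 rose and 2 fell, and 3 rose and 0 fell in these groups. In that fit 2976 of all 23678 genes tested rose and 3289 fell. Aquaporin-4 (MSTRG.2949), a water channel, fell from 12.1, 7.63 and 9.31 CPM to 1.52, 0.368 and 0.686 CPM (log2 fold change -3.49, SE 0.583, edgeR QL adjusted p = 0.00114), and cytochrome b5 (MSTRG.23133), an electron carrier, fell by 2.20 (adjusted p = 0.00845). A tubulointerstitial nephritis antigen-like gene (MSTRG.3504) rose from 44.5, 32.0 and 31.1 CPM to 84.6, 77.6 and 93.6 CPM (log2 fold change 1.25, SE 0.190, edgeR QL adjusted p = 0.000609). The small ubiquitin-related modifier 3 (TOG006749) and ADP-ribosylation factor 1 (MSTRG.21064), a regulator of vesicle traffic, rose by 0.62 and 0.52, and both calls were lost without control 1 (adjusted p 0.203 and 0.195).

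**Figure D4:**
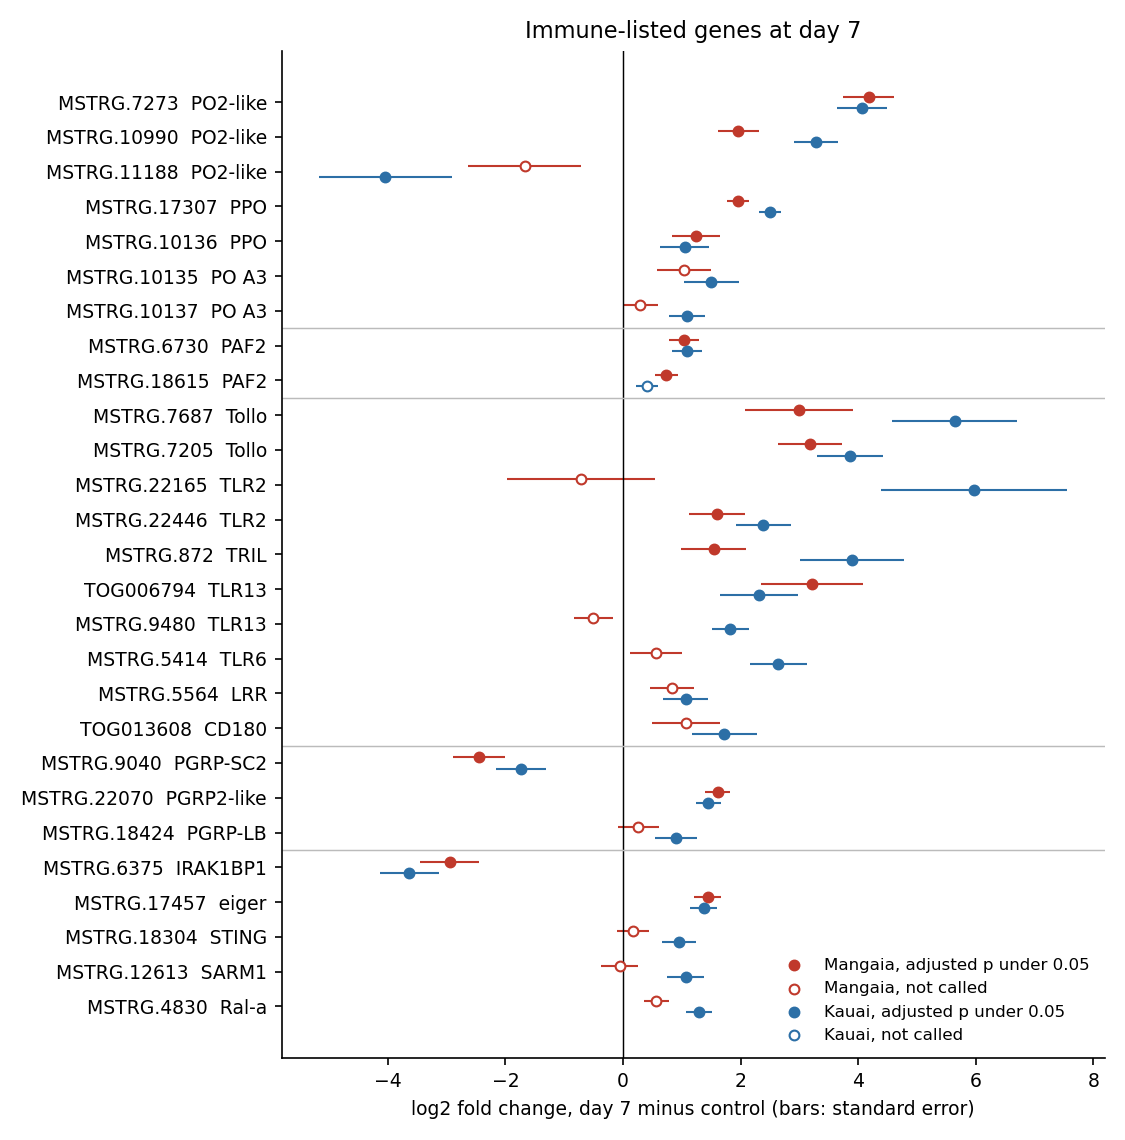
Log2 fold change between day 7 and control (x axis, bars are standard errors) of 27 immune-listed genes in 5 groups separated by grey lines (phenoloxidases, activating factors, Toll-like receptors and leucine-rich repeat proteins, peptidoglycan recognition, signalling), in Mangaia (red) and Kauai (blue), filled where called at an FDR of 0.05. Phenoloxidase 2-like MSTRG.7273 is at 4.18 in Mangaia, and toll-like receptor 13 (MSTRG.9480) is at -0.50 in Mangaia and 1.82 in Kauai.

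Kauai crickets, whose libraries are none of those in the Mangaia comparison, gave 12174 genes (51.3%) DE at day 7, 5953 higher (25.1%) and 6221 lower (26.2%). Genes higher in both populations numbered 1893, which was 63.2% of those higher in Mangaia and 31.8% of those higher in Kauai. Genes lower in both numbered 3596, 80.6% of the Mangaia and 57.8% of the Kauai genes. The larger a rise in Mangaia, the more often it was also called higher in Kauai, from 48.0% of rises under 2-fold to 90.5% of those over 16-fold. For falls this share was 58.0% under 2-fold, 86.8% between 4-fold and 8-fold and 75.0% over 16-fold. Mangaia alone had 1041 genes higher and 847 lower, and 77 genes were called in opposite directions, 59 of them higher in Mangaia.

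The test of the difference between the responses, the population by infestation interaction, called 576 genes (2.43%), of which 294 had the higher log2 fold change in Kauai. Scaling by DESeq2's size factors gave 302 of 758, and scaling by library size alone gave 1818 of 1947. Among the DE genes of Mangaia 144 were called for the interaction, 107 that rose and 37 that fell, and 57 of these were not called in Kauai. The interaction calls were fragile, with 0 genes left in edgeR QL when any of Mangaia control 2, Mangaia control 3, Mangaia day 7 library 1, Kauai control 2, Kauai control 3 or Kauai day 7 library 1 was left out (3740 to 4652 genes at an unadjusted p under 0.05). Leaving out Mangaia control 1 gave 26 genes, Kauai day 7 library 3 gave 2, Mangaia day 7 library 3 gave 218 and Kauai control 1 gave 939, while leaving out day 7 library 2 gave 847 for Mangaia and 540 for Kauai.

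The strongest such rise in Mangaia was that of MSTRG.19573, an unnamed gene. It had 6.58, 11 and 8.09 CPM in Mangaia controls and 98.4, 48.0 and 70.1 CPM at day 7 (log2 fold change 3.07, SE 0.355, edgeR QL adjusted p = 9.87e-05), while Kauai went from 9.13, 11.2 and 16.5 CPM to 15.3, 23.7 and 22.8 CPM. At day 4 it was at 64.5, 65.6 and 53.2 CPM in Mangaia. MSTRG.3261 followed another course, with 6.97, 10.6 and 5.95 CPM in controls, 4.15, 4.28 and 5.66 CPM at day 4 and 37.8, 68.3 and 30.2 CPM at day 7 (log2 fold change 2.53 against controls, SE 0.378, edgeR QL adjusted p = 0.000544). Its 6 Kauai values lay between 7.65 and 15.0 CPM.

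MSTRG.4093 fell from 22.2, 42.6 and 44.4 CPM to 8.17, 3.81 and 3.02 CPM in Mangaia (log2 fold change -2.86, SE 0.551, edgeR QL adjusted p = 0.00249), and in Kauai the controls (11.4 to 34.9 CPM) and day 7 pools (10.7 to 37.1 CPM) overlapped throughout. Of the genes called in opposite directions, MSTRG.3709 rose by 1.31 in Mangaia and had -0.97 in Kauai, and MSTRG.9726 fell by 1.65 in Mangaia and had 1.27 in Kauai on the log2 scale, the call of MSTRG.9726 in Mangaia being lost without day 7 library 3 (adjusted p = 0.0650). For the interaction itself MSTRG.19573 had a difference, Kauai minus Mangaia, of -2.33 (edgeR QL adjusted p = 0.0378), MSTRG.3261 of -2.15 (adjusted p = 0.0454) and MSTRG.4093 of 3.04 (adjusted p = 0.0454). Each of these interaction calls was lost without any of the 3 Mangaia controls, Mangaia day 7 library 1, Kauai control 2 or 3, or Kauai day 7 library 1 or 3, and further without Mangaia day 7 library 2 for MSTRG.3261 and MSTRG.4093, Kauai day 7 library 2 for MSTRG.3261 and Mangaia day 7 library 3 for MSTRG.4093 (adjusted p 0.0513 to 0.122 in all).

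**Figure D5:**
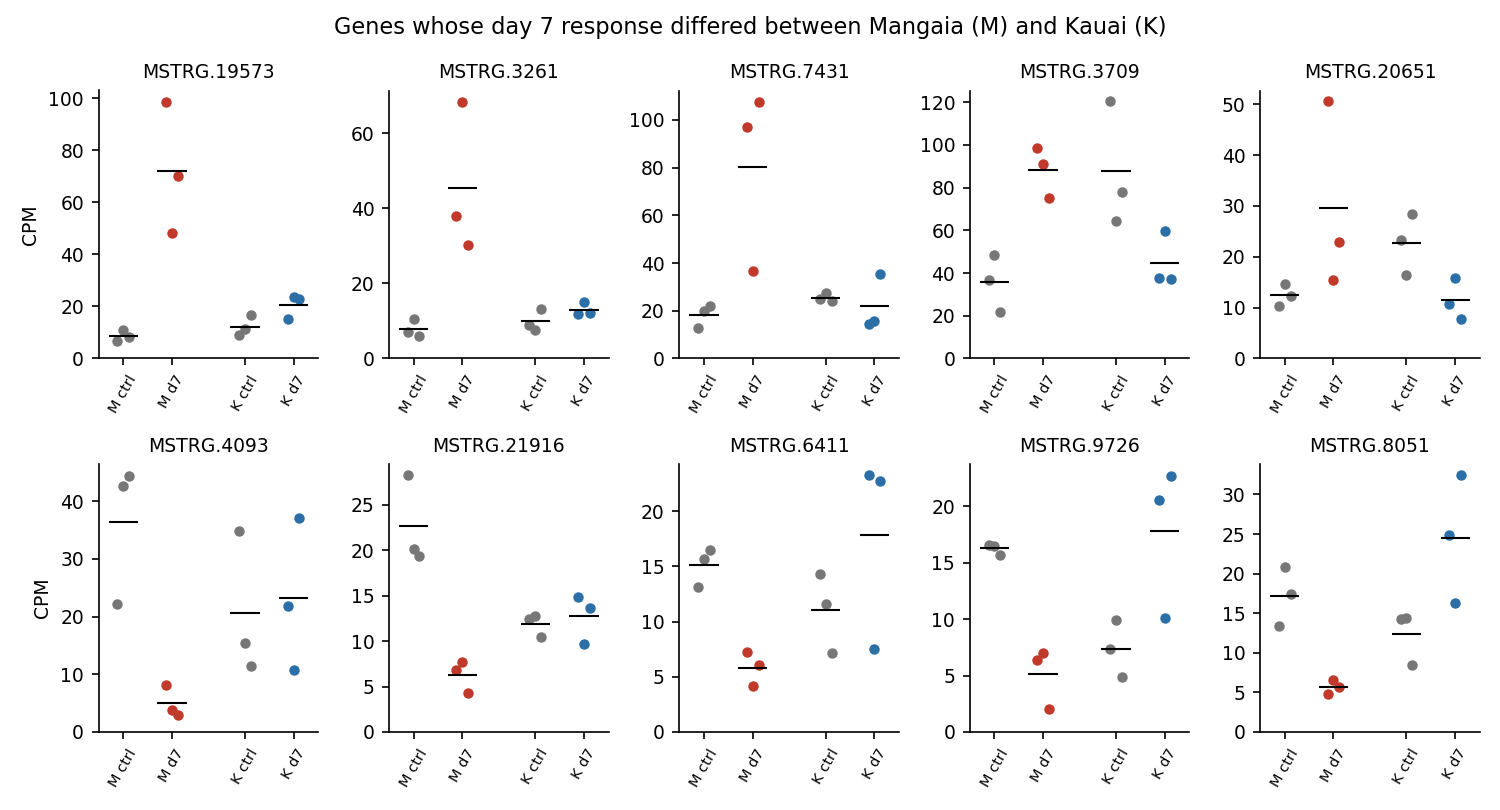
CPM (y axis, linear) of 10 genes called for the population by infestation interaction, each point a library of Mangaia (M) or Kauai (K) controls (grey) or day 7 crickets (red, Mangaia, and blue, Kauai), with the group mean as a line. MSTRG.19573 reaches 48.0 to 98.4 CPM at day 7 in Mangaia and 15.3 to 23.7 CPM in Kauai, and the lower row holds genes that fell in Mangaia.

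Among the immune-listed genes, 18 were higher and 5 lower in both populations, beside 7.97% and 15.1% of all genes tested. A further 4 passed the test only in Mangaia and 22 only in Kauai, beside 7.95% and 27.8%. The study chose the list for a change in these libraries, so these counts are not independent of that choice. Being called in a single population does not show a difference, and 1 of the 53 passed the interaction test, beside 2.43% of all genes tested. This was toll-like receptor 13 (MSTRG.9480), with 1.84, 1.91 and 1.53 CPM in Mangaia controls and 1.25, 1.11 and 1.37 CPM at day 7 (log2 fold change -0.50, SE 0.332, edgeR QL adjusted p = 0.256). In Kauai it went from 1.66, 1.12 and 1.36 CPM to 4.03, 5.04 and 5.68 CPM. The difference was 2.32 (SE 0.459, edgeR QL adjusted p = 0.0378) on 38 control and 28 day 7 reads in Mangaia, and it was lost without the same libraries (adjusted p 0.0568 to 0.0911).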

How the data were processed

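The authors used Trimmomatic 0.33 to trim reads, STAR 2.5.3a to align read pairs to an assembly of *T. oceanicus* and, with StringTie 1.3.4d merging splice junctions between passes, to count them, and deposited raw counts of uniquely mapped pairs per gene. The name of the genome build is not given in the sources used here. The unstranded counts were used, so overlapping or antisense genes cannot be told apart, and genes with near-identical copies are undercounted because pairs mapped to several places (8.52% to 12.3% of the 6 libraries) were counted in no gene. Summary entries that name no gene were kept out of library sizes and tests. They held unmapped pairs, pairs mapped to several places, pairs in no gene (5.77% to 6.56%) and pairs in several genes (2.92% to 3.88%).

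In R 4.3.3, genes reaching 1 CPM in 2 or more of the 18 libraries were tested with edgeR 4.0.16. All 18 libraries entered a single quasi-likelihood model with a mean for each of the 6 groups, after TMM normalization (factors 0.900 to 1.068 in the 6 libraries), and contrasts were adjusted over all genes by the Benjamini-Hochberg method at 0.05. The size of the log2 fold change over the root of F gave standard errors. Log2 CPM used a prior count of 2, CPM values are TMM-normalized, and fold bounds for genes without reads take 3 reads over the group. Single values per library were compared by two-sided exact permutation tests. For the shares of pairs not counted in genes, exact permutation p was 0.1 to 0.8 (adjusted over 4 shares 0.4 to 0.8). The share in no gene was 6.16% to 6.56% in controls and 5.77% to 6.14% at day 7, without overlap. Its exact permutation p of 0.1 is the smallest that 3 against 3 pools can give, so the test cannot decide whether it differed. Libraries of a group differed by more than sampling noise (chi-square per degree of freedom 23.8 to 65.3), so each was counted once.

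Named genes are the 53 of the study's immune list, the only genes with names here. Of the DE genes they are also the 8 largest rises and falls whose mean CPM reached 10 without overlap of the groups, the 5 that gained and the 5 that lost most CPM, the 3 largest in each direction with a Mangaia call, no Kauai call and an interaction call, the 3 with most reads among those with no reads in the other group, and the 2 largest in each direction called in opposite directions. The comparison, its members and the lists were chosen with earlier results of these data known. The genes lowered in Kauai were used only to describe the pools. As alternatives, DESeq2 1.42.0, voom in limma 3.58.1 and the likelihood ratio test of edgeR were run, with other normalizations and filters, fits of fewer libraries, the replicate number as a block, and leaving out each library. The scripts were tested on simulated data.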

Additional observations from a re-analysis of the deposited data

Results flagged for a closer look

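The interaction term in edgeR's quasi-likelihood model called a difference between the populations in the day 7 response for 11 of the named genes. Each difference is given as the log2 fold change in Kauai minus that in Mangaia. The response was lower in Kauai for MSTRG.19573 (-2.33), MSTRG.3261 (-2.15), MSTRG.7431 (-2.36), MSTRG.3709 (-2.28) and MSTRG.20651 (-2.24). It was higher in Kauai for MSTRG.4093 (3.04), MSTRG.21916 (1.95), MSTRG.6411 (2.08), MSTRG.9726 (2.93), MSTRG.8051 (2.59) and toll-like receptor 13, MSTRG.9480 (2.32). Adjusted p ranged from 0.0378 to 0.0499. All 11 calls were lost with the replicate number as a block. Each was also lost without any of the 3 Mangaia controls or Mangaia day 7 library 1. The same held without Kauai control 2 or 3, or Kauai day 7 library 1 or 3. MSTRG.3709, MSTRG.20651, MSTRG.9726 and MSTRG.8051 were named because they were called in opposite directions in the populations, which favours a difference in this test. The others, apart from MSTRG.9480, were named because they had passed it. For all of these, passing the test is no further result.

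MSTRG.7431 had 12.8, 19.8 and 21.8 CPM in Mangaia controls and 96.8, 36.5 and 107.6 CPM at day 7, while Kauai controls had 24.1 to 27.2 CPM and Kauai day 7 pools 14.6, 15.6 and 35.5 CPM. MSTRG.20651 rested on day 7 library 1, with 50.6 CPM there and 15.5 and 22.9 CPM in libraries 2 and 3, against 10.3 to 14.6 CPM in controls, and its call in Mangaia was lost without that library (log2 fold change 0.69, edgeR adjusted p = 0.113), control 1 (adjusted p = 0.115) or control 3 (adjusted p = 0.0501). MSTRG.8051 had 13.4, 20.8 and 17.4 CPM in Mangaia controls and 4.85, 6.51 and 5.62 CPM at day 7, against 14.3, 14.3 and 8.49 CPM and 24.8, 16.3 and 32.5 CPM in Kauai.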

How the results depend on the processing

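The count of 7454 DE genes was 3327 in a fit of only the 6 libraries and 4309 to 7675 when a library was left out, lowest without Mangaia control 1, of which 4175 were among the 7454. Other tests, normalizations and filters gave 7205 to 8708. The labels do not say whether the replicate numbers pair the pools. Same-numbered Mangaia controls and day 7 pools had correlations of 0.137, 0.163 and -0.106, the first and second being best with their own number. So few pairs cannot decide whether the pools are paired. With the replicate block 6201 genes were called, 6146 of them shared. The 576 interaction calls were 1711 by the likelihood ratio test, 2131 by DESeq2, 1947 when scaled by library size (median over all genes 0.39), 306 with no filter and 0 with the replicate block in edgeR's quasi-likelihood test (4594 genes at an unadjusted p under 0.05), and 0 to 939 when a library was left out. The rise in the share of gene counts held by genes called higher, 19.5 points, was 15.3 points for those changed over 2-fold. Of 92 named genes 66 were called, 41 of these under every alternative that gave a value, and none of the 66 changed sign. Signs turned only for genes not called, with log2 fold changes that ran, over the libraries left out, from -3.81 to 3.04 for MSTRG.22165, -0.058 to 0.35 for MSTRG.18304, -0.33 to 0.17 for MSTRG.12613, -0.045 to 1.56 for MSTRG.1405 and -0.34 to 0.096 for MSTRG.23640, which was 0.036 with voom. At 6613687 to 8023588 pairs in genes per library, genes near 1 CPM have few reads, and 3 pools a side limit the rest.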
